A study of Mus musculus with 5 samples.

Results

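The genes described here are 10 mouse genes of the response to low oxygen and of glucose use, Car9, Adm, Bnip3, Ndrg1, Pdk1, Ldha, Hk2, Egln3, Ankrd37 and Pgk1. They were taken by name from a fixed list, which was chosen with earlier results of these data known. They were matched by symbol to the Ensembl identifiers of the count tables, among 55573 genes in all. All 10 were found and all 10 had enough counts to be tested. C57BL/6 females, aged 7 to 8 weeks at implantation, carried a GL261 tumor in the right caudate nucleus-putamen, GL261 being a mouse glioma line that here also carried a luciferase/mKate2 vector. Mice of the vehicle group (3 libraries) received antibody dilution buffer, and mice of the UMBO group (2 libraries) received ultrasound-mediated blood-brain barrier opening, which is low-intensity pulsed ultrasound given together with intravenous microbubbles under isoflurane. Sessions took place on days 21 and 24, and the right hemisphere was taken 24 h after the last of them. The methods describe anesthesia for treatment protocols in general, and the sources used here do not say whether the vehicle mice of this experiment were anesthetized or given microbubbles. The comparison asks whether RNA of the sonicated, tumor-bearing hemisphere differs from that of the vehicle group.

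When oxygen is plentiful, prolyl hydroxylases of the Egln family mark the alpha subunits of hypoxia-inducible factor (HIF), which are then destroyed with the help of Vhl. When oxygen falls, the alpha subunit persists, pairs with Arnt and binds a short DNA core, ACGTG or GCGTG, near its target genes. Many targets shift cells from mitochondrial respiration to glycolysis and lactate release, and others act on pH, vessel tone and the removal of mitochondria. Gliomas often hold poorly perfused tissue, where this program is a familiar feature, but several of the genes are also expressed in normal brain and in dividing or immune cells at ordinary oxygen levels.

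To show where this core occurs near transcription starts, 4 promoters are printed for members that differed in how their RNA varied between the libraries. Binding of HIF to these matches was not tested. Each is the RefSeq window from 250 bases before to 50 bases after a transcription start (GRCm38.p6), read 5′ to 3′ on the strand of the gene, and capitals mark ACGTG or GCGTG on either strand, so that the reverse strand matches read CACGT or CACGC. The windows lie at chr6:82774405-82774704 for Hk2 (reverse strand), chr7:46845554-46845853 for the first of the 2 Ldha windows (forward strand), chr7:138909457-138909756 for Bnip3 (reverse strand) and chr8:45999801-46000100 for Ankrd37 (reverse strand).
Hk2: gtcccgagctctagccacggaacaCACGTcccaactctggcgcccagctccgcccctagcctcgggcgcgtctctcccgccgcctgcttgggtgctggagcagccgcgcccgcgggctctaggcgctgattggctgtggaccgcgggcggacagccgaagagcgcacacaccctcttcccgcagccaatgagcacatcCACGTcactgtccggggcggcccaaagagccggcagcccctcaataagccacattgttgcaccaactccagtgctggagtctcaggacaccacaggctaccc
Ldha: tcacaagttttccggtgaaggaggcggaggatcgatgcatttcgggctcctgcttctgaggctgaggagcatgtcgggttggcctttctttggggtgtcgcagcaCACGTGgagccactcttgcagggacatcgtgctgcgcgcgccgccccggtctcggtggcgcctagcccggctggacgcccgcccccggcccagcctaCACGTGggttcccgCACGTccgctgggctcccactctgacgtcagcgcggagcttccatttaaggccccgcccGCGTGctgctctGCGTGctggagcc
Bnip3: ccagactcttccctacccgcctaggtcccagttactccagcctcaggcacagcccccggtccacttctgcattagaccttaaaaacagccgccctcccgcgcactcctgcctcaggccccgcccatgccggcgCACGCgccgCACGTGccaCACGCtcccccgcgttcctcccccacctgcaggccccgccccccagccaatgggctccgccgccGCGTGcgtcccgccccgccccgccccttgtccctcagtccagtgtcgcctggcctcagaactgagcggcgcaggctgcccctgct
Ankrd37: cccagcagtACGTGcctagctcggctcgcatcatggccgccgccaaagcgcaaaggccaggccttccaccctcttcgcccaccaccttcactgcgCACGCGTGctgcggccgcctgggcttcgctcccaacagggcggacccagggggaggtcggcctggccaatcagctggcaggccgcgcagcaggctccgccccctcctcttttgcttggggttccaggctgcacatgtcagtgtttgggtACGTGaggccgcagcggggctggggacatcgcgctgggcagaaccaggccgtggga

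Of the 10 members, 9 had a window in the table and Ndrg1 had none. All 9 held the core at least once in a window, against 46.73% of the 27025 genes with a window. In the 4 surrounding lists described below the share was high too. It was 88.89% of other hypoxia-inducible genes, 85.71% of pyruvate dehydrogenase and its kinases, 81.25% of other glycolysis genes and 66.67% of the oxygen sensing machinery. Of the 11 windows of the members, 8 held the core more than once, against 20.64% of all 32851 windows. The first Ldha window held 7 matches and the second held 2. Bnip3 held 5, Ankrd37 4, and Hk2, Adm and Pgk1 held 2 each. The Car9 and Egln3 windows each held 1, and Pdk1 held 2 in 1 of its windows and 0 in the other. Matches on both strands of the palindrome CACGTG were counted separately, as were the overlapping matches of CACGCGTG in the Ankrd37 window. The palindrome CACGTG, which is also bound by other factors, was present in the first Ldha window and in the Bnip3 window. The members were listed as hypoxia genes, so the core in their promoters describes them and is not a result of these libraries.

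Libraries held from 59736771 to 86164159 counts each, and every pair of libraries differed by more than sampling noise. Of 23592 genes tested with edgeR's quasi-likelihood test, 0 had an adjusted p under 0.05 (0%), and 1738 had an unadjusted p under 0.05, 1251 of them (5.3%) above and 487 (2.06%) below the vehicle level. The DESeq2 Wald test called 37 genes (0.157%). UMBO replicate 2 stood apart from the other libraries: its summed level of 10 proliferation genes was 499 CPM (the read count scaled to library size, with TMM normalization) against 37.1 to 120 CPM elsewhere, and that of 10 neuronal genes was 3127 CPM against 6021 to 9107 CPM. Markers of neurons, astrocytes and myelin were detected in all 5 libraries, as in brain tissue. The members are therefore also given without that library. The libraries are bulk RNA of a hemisphere, in which fewer cells of a type and less RNA per cell cannot be told apart.

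Per kilobase of exon, the members spanned a wide range of levels in the vehicle libraries. Pgk1 was the most abundant at 93.9 ± 8.80 RPKM (CPM per kilobase of merged exons; SD, n = 3), followed by Ldha at 67.7 ± 11.9 and Bnip3 at 39.5 ± 5.31. Ndrg1 (16.9 ± 0.37 RPKM), Pdk1 (8.74 ± 1.11) and Egln3 (4.29 ± 0.17) came next. Ankrd37 (3.00 ± 0.40 RPKM), Hk2 (1.79 ± 0.80) and Adm (1.29 ± 0.44) had ranges that overlapped with their neighbors in this order. Car9 was the least abundant at 0.737 ± 0.304 RPKM. All other neighbors in the order had vehicle ranges that did not overlap.

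With UMBO, the 10 genes did not move as a block. On the log2 scale 6 lay above and 4 below the vehicle level, and their median log2 fold change was 0.21, beside 0.01 over all genes tested. Hk2, Adm, Car9, Ldha and Pgk1 had the highest values in UMBO replicate 2, whereas Bnip3, Ndrg1 and Pdk1 had their lowest values in that same library. Neither edgeR nor the DESeq2 Wald test gave any member an adjusted p under 0.05, and Hk2 was the 1 member of 10 whose unadjusted edgeR p was under 0.05, near the 7.37% of all genes with such a p. Without UMBO replicate 2 the median log2 fold change was -0.0018 and no member had an unadjusted p under 0.05 in edgeR. When UMBO replicate 2 was the only treated library, 3 members (Adm, Hk2 and Ldha) had an adjusted p under 0.05 in edgeR, where 18.3% of all genes did, and that single library was assumed to vary like the vehicle libraries. In 9 of the 10 members the log2 gap between the UMBO libraries was larger than the whole vehicle range, as it was in 60.4% of 23459 genes.

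**Figure D1:**
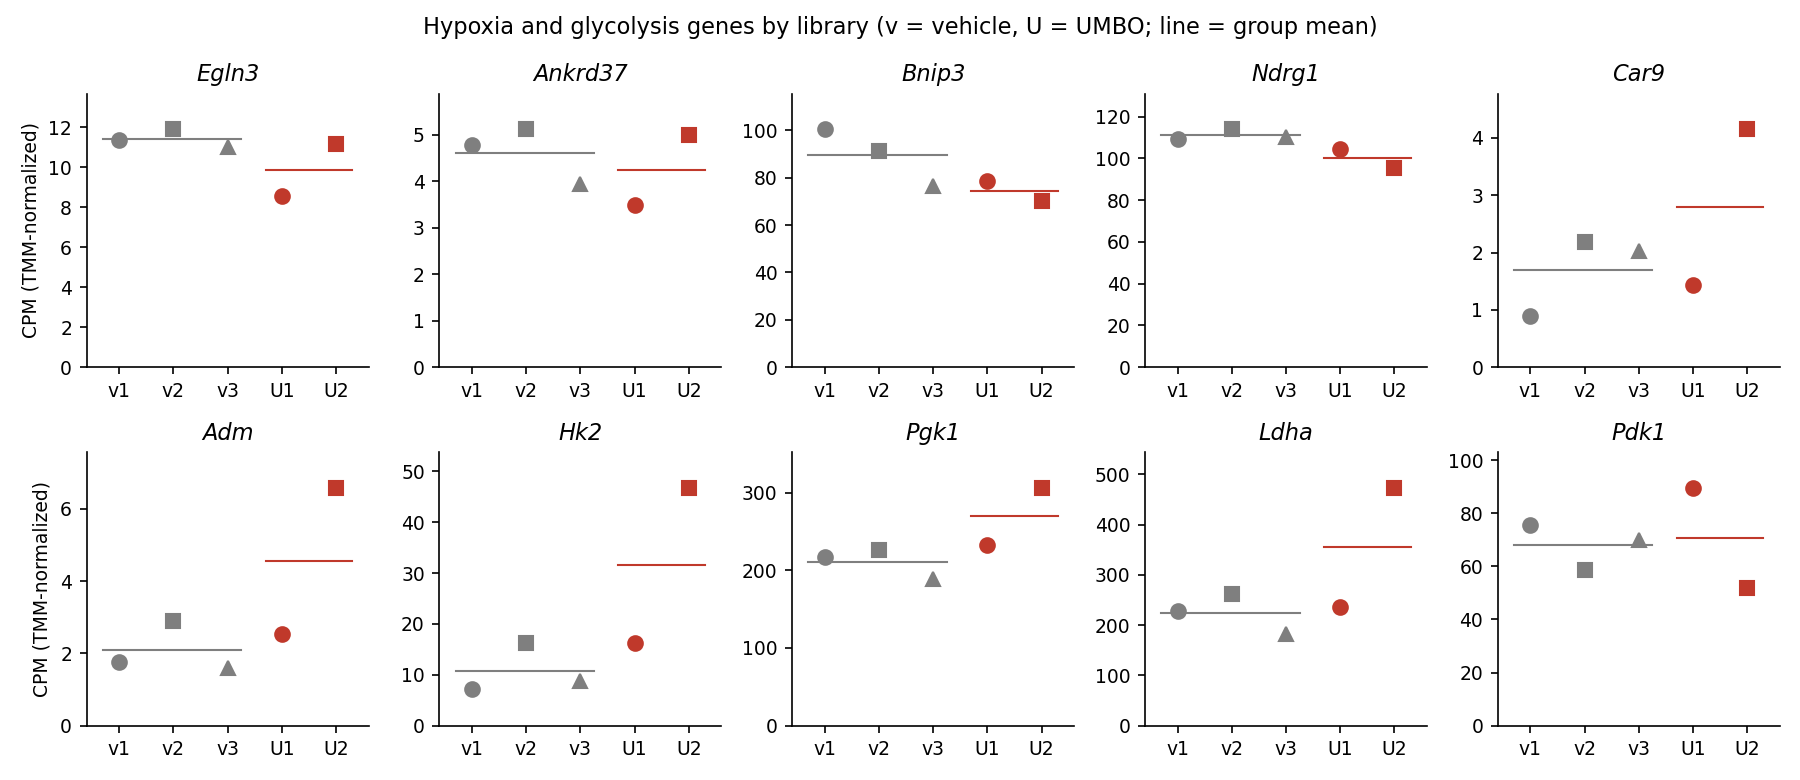
CPM (TMM-normalized) of the 10 genes in each library, with 3 vehicle libraries in grey, 2 UMBO libraries in red and a line at each group mean. UMBO replicate 2 (U2) was the highest library for Car9, Adm, Hk2, Pgk1 and Ldha and the lowest for Bnip3, Ndrg1 and Pdk1.

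For 2 members, Hk2 and Pgk1, the UMBO values were both higher than the highest vehicle value, where 11.5% of all genes tested did so. For 1 member, Ndrg1, both were lower than the lowest vehicle value, where 11.4% of all genes did. With library size as the only scaling, Pgk1 kept this separation and Hk2 and Ndrg1 lost it. The groups overlapped for the other 7 members.

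Egln3 (chromosome 12 of GRCm38, 54178981 to 54203860, reverse strand) encodes the prolyl hydroxylase PHD3, which acts on HIF-alpha and is itself a HIF target. It was at 11.4, 11.9 and 11.0 CPM in vehicle replicates 1 to 3 and at 8.56 and 11.2 CPM in UMBO replicates 1 and 2. UMBO replicate 1 was the low library, and UMBO replicate 2 lay inside the vehicle range. The log2 fold change was -0.21 (standard error 0.215; edgeR adjusted p 0.603), -0.06 without UMBO replicate 1 and -0.41 without UMBO replicate 2. Ankrd37 (chromosome 8, 45996902 to 46005707, reverse strand), a small ankyrin repeat protein used as a hypoxia marker, was at 4.79, 5.12 and 3.93 CPM with vehicle and at 3.49 and 4.99 CPM with UMBO. The groups overlapped, and its log2 fold change of -0.12 (standard error 0.293) turned to 0.0041 when libraries were scaled by size alone and to 0.09 without UMBO replicate 1, and was -0.40 without UMBO replicate 2. Ankrd37 shares 349 exonic bases with Lrp2bp and 57 with Ufsp2 on the opposite strand, and since the strand setting of the counts is not given in the sources used here, reads from these bases cannot be told apart. Ankrd37 had 298 to 358 counts in a library, Lrp2bp 40 to 87 and Ufsp2 2593 to 3340.

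Bnip3 and Ndrg1, both abundant, were below every vehicle library in UMBO replicate 2, the library in which Hk2 and Ldha were highest. Bnip3 (chromosome 7, 138890836 to 138909519, reverse strand) encodes a mitochondrial outer membrane protein that recruits the autophagy machinery to mitochondria. It was at 101, 91.2 and 76.7 CPM with vehicle and at 78.8 and 70.3 CPM with UMBO. UMBO replicate 1 lay just above vehicle replicate 3, and the log2 fold change was -0.26 (standard error 0.191; edgeR adjusted p 0.516). Ndrg1 (chromosome 15, 66929318 to 66969640, reverse strand), a stress-responsive cytoplasmic protein that oligodendrocytes also express, was at 109, 114 and 110 CPM with vehicle and at 105 and 95.4 CPM with UMBO. The vehicle libraries differed little from each other and both UMBO libraries were lower, with a log2 fold change of -0.15 (standard error 0.165; edgeR adjusted p 0.623) that was -0.04 when only library size was used. The log2 fold change of Bnip3 was -0.18 and that of Ndrg1 -0.09 without UMBO replicate 2. Bnip3 and Ndrg1 each overlap antisense transcripts with at most 14 counts in a library.

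The 2 least abundant members were high in UMBO replicate 2 and not in UMBO replicate 1. Car9 (chromosome 4, 43506966 to 43513729, forward strand) encodes carbonic anhydrase 9, a membrane enzyme that acidifies the outside of hypoxic cells. It was at 0.896, 2.18 and 2.02 CPM with vehicle and at 1.43 and 4.15 CPM with UMBO, from 67 to 272 reads per library. UMBO replicate 1 lay inside the vehicle range, and the log2 fold change of 0.71 (standard error 0.589; edgeR adjusted p 0.545) was -0.25 without UMBO replicate 2. Car9 shares 214 exonic bases with the antisense transcript Gm12454, which had 35 to 60 counts. Adm (chromosome 7, 110627661 to 110629820, forward strand) encodes adrenomedullin, a secreted peptide that widens vessels. It was at 1.75, 2.89 and 1.61 CPM with vehicle and at 2.54 and 6.58 CPM with UMBO. Vehicle replicate 2 lay above UMBO replicate 1, so the groups overlapped, and the log2 fold change was 1.13 (standard error 0.496; edgeR adjusted p 0.497). It was 0.29 without UMBO replicate 2 and 1.63 (edgeR adjusted p 0.0422) without UMBO replicate 1.

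Among the glycolysis members, Hk2 had the highest fold change of the 10. Hk2 (chromosome 6, 82725025 to 82774454, reverse strand) encodes hexokinase 2, the inducible form of the enzyme that traps glucose in the cell, and is typical of tumor cells and activated immune cells. It was at 7.14, 16.2 and 8.76 CPM with vehicle and at 16.2 and 46.8 CPM with UMBO. UMBO replicate 1, at 16.23 CPM, barely exceeded vehicle replicate 2, at 16.16 CPM, and UMBO replicate 2 stood at 4.38 times the vehicle mean. The log2 fold change was 1.56 (standard error 0.532; edgeR adjusted p 0.497, DESeq2 adjusted p 0.276). It was 0.60 without UMBO replicate 2, 2.10 (edgeR adjusted p 0.039) without UMBO replicate 1 and 2.02 without vehicle replicate 2.

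Ldha (chromosome 7, 46841475 to 46855627, forward strand) encodes the lactate dehydrogenase subunit that favors the making of lactate. It was at 228, 261 and 183 CPM with vehicle and at 237 and 473 CPM with UMBO. UMBO replicate 1 lay inside the vehicle range and UMBO replicate 2 at 2.11 times the vehicle mean. The log2 fold change was 0.66 (standard error 0.345; edgeR adjusted p 0.497), 0.08 without UMBO replicate 2 and 1.05 (edgeR adjusted p 0.0412) without UMBO replicate 1. Pgk1 (chromosome X, 106187100 to 106203699, forward strand), the phosphoglycerate kinase of the first ATP-yielding step of glycolysis, was at 217, 227 and 189 CPM with vehicle and at 232 and 306 CPM with UMBO. Both UMBO libraries were higher than every vehicle library, UMBO replicate 1 by a small margin, with a log2 fold change of 0.35 (standard error 0.221; edgeR adjusted p 0.497) that was 0.14 without UMBO replicate 2. Processed copies named after Ldha and Pgk1 held at most 57 and 16 counts in a library, and reads can be split between a gene and such copies.

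Pdk1 (chromosome 2, 71873224 to 71903858, forward strand) encodes pyruvate dehydrogenase kinase 1, which inhibits pyruvate dehydrogenase and so the conversion of pyruvate to acetyl-CoA. It was at 75.6, 58.6 and 69.9 CPM with vehicle and at 89.6 and 52.0 CPM with UMBO. Here the UMBO libraries were the highest and the lowest of all 5, and the log2 fold change of 0.06 (standard error 0.272; edgeR adjusted p 0.918) was 0.40 without UMBO replicate 2 and -0.42 without UMBO replicate 1.

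**Figure D2:**
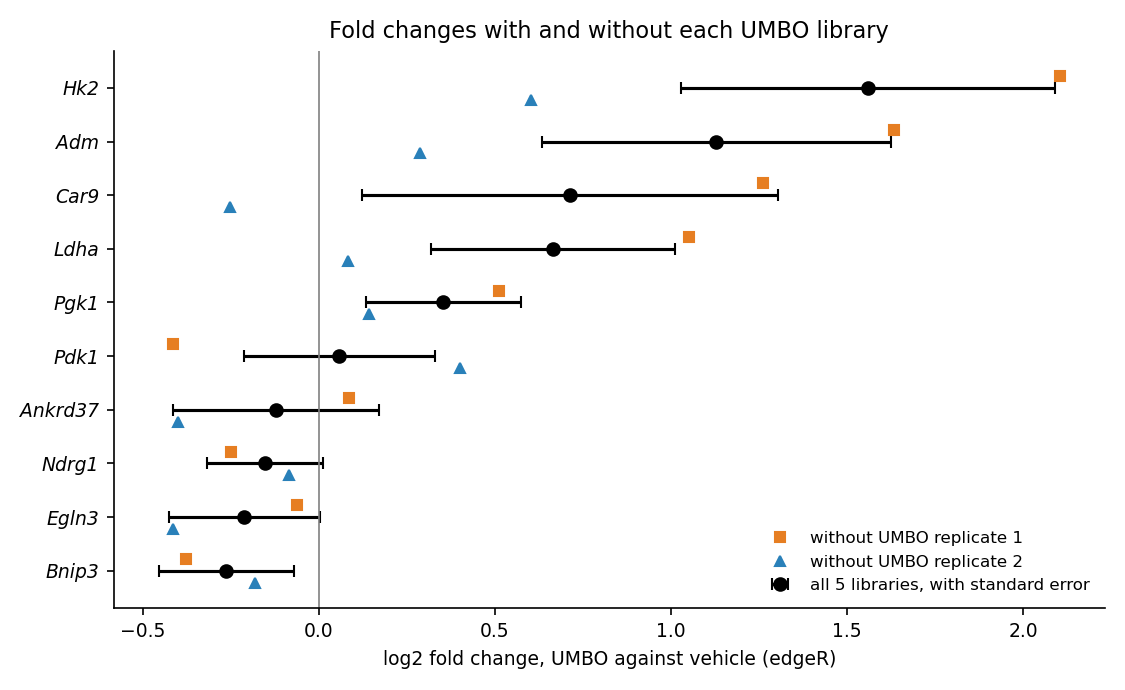
Log2 fold change of each gene, UMBO against vehicle, from edgeR with all 5 libraries (black, bars are standard errors), without UMBO replicate 1 (orange squares) and without UMBO replicate 2 (blue triangles). Hk2 was at 1.56 with all libraries and at 0.60 without UMBO replicate 2, and Car9, Pdk1 and Ankrd37 changed sign with the UMBO library that was left out.

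A ratio of 2 related genes within a library does not depend on how libraries are scaled, and 6 such pairs were compared. Ldhb encodes the lactate dehydrogenase subunit that favors pyruvate and is typical of neurons and heart. Per kilobase of exon, Ldha made up 21.5%, 23.5% and 19.9% of the sum of Ldha and Ldhb with vehicle and 26.6% and 40.4% with UMBO, so that the groups did not overlap. The log2 ratio of Ldha to Ldhb was 0.85 higher with UMBO (-1.86 ± 0.16 with vehicle, SD, n = 3, and -1.01 ± 0.64 with UMBO, SD, n = 2; 2-sided exact permutation p = 0.1, adjusted over the 6 pairs 0.3). With 10 groupings of the libraries 0.1 is the smallest p this design can give. The difference was 0.40 without UMBO replicate 2 and 1.30 without UMBO replicate 1. Ldhb itself was at 395, 404 and 350 CPM with vehicle and at 310 and 331 CPM with UMBO, below every vehicle library in both, with a log2 fold change of -0.26 (standard error 0.207; edgeR adjusted p 0.539).

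Hk2 made up 2.23%, 6.23% and 3.38% of the sum of Hk2 and the constitutive brain hexokinase Hk1 with vehicle, and 6.01% and 24.0% with UMBO. UMBO replicate 1 lay inside the vehicle range, and the log2 ratio was 1.92 higher with UMBO (2-sided exact permutation p = 0.3, adjusted 0.45) and 0.77 higher without UMBO replicate 2. Hk1 was lowest in UMBO replicate 2, at 211 CPM against 348 to 448 CPM in the other 4 libraries. The log2 ratio of Pgk1 to Gapdh, the enzyme just before it in glycolysis, was 0.33 higher with UMBO (2-sided exact permutation p = 0.1, adjusted 0.3) and 0.11 higher without UMBO replicate 2. In UMBO replicate 1 this ratio, at 0.360, barely passed that of vehicle replicate 2, at 0.359.

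The other 3 pairs differed less. Pdk1 made up 18.6% to 22.7% of the sum of Pdk1 and its relative Pdk2 with vehicle and 25.6% and 23.0% with UMBO (2-sided exact permutation p = 0.2, adjusted 0.4). The groups did not overlap in this ratio, although they overlapped in the level of Pdk1. Bnip3 made up 51.3% to 55.5% of the sum of Bnip3 and the related mitophagy receptor Bnip3l with vehicle and 51.0% and 53.2% with UMBO (2-sided exact permutation p = 0.4, adjusted 0.48). Egln3 made up 14.3% to 15.7% of the sum of Egln3 and Egln1, the main oxygen sensor, with vehicle and 12.5% and 18.0% with UMBO (2-sided exact permutation p = 0.9, adjusted 0.9). The UMBO libraries lay on opposite sides of the vehicle range for that pair.

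**Figure D3:**
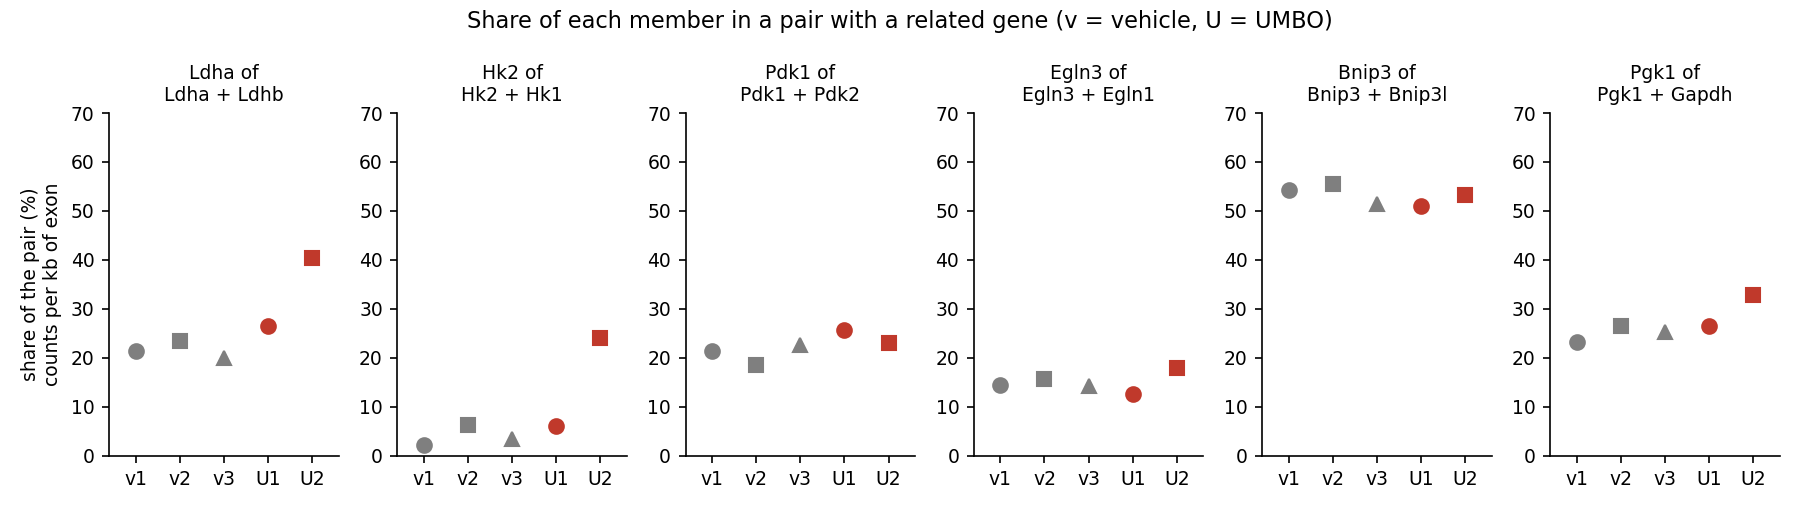
Share of each gene, in percent, in the sum with a related gene, from counts per kilobase of exon, in each library (grey vehicle, red UMBO). The Ldha share was 19.9% to 23.5% with vehicle and 26.6% and 40.4% with UMBO, and the Bnip3 share stayed between 51.0% and 55.5% in all 5 libraries.

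The genes around the members were described from 4 lists. The oxygen sensing machinery, with the HIF subunits, the hydroxylases and their partners, had 2 genes above and 8 below the vehicle level out of 10, and a median log2 fold change of -0.19. In edgeR 0 of them passed at an adjusted p under 0.05 and 0 at an unadjusted one. Egln1 was at 90.5, 86.6 and 89.2 CPM with vehicle and at 80.8 and 68.6 CPM with UMBO, with a log2 fold change of -0.25 (standard error 0.167) that was -0.13 without UMBO replicate 2 and -0.40 without UMBO replicate 1. Arnt2, the neuronal relative of Arnt, was at 206 to 331 CPM with vehicle and at 258 and 95.1 CPM with UMBO, so that UMBO replicate 2 was its lowest library and UMBO replicate 1 lay inside the vehicle range. Its log2 fold change was -0.61 (standard error 0.46; edgeR adjusted p 0.523), -1.53 (edgeR adjusted p 0.039) without UMBO replicate 1 and -0.06 without UMBO replicate 2. For Arnt, the shared partner of the HIF alpha subunits, it was -0.30 (standard error 0.202), -0.13 without UMBO replicate 2 and -0.52 without UMBO replicate 1.

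Among 24 other genes that low oxygen induces, 14 lay above and 10 below the vehicle level, and the median log2 fold change was 0.06. In edgeR 0 passed at an adjusted p under 0.05, and 4, all above the vehicle level, at an unadjusted one, where 5.3% of all genes did in that direction. Ddit4, an inhibitor of mTORC1, was at 29.2, 40.9 and 27.1 CPM with vehicle and at 48.1 and 67.2 CPM with UMBO. Both UMBO libraries were above every vehicle library, and the log2 fold change was 0.83 (standard error 0.252; edgeR adjusted p 0.497), 0.57 without UMBO replicate 2 and 1.02 (edgeR adjusted p 0.0413) without UMBO replicate 1. Loxl2, a secreted enzyme that crosslinks collagen, was at 0.802, 1.75 and 0.851 CPM with vehicle and at 1.91 and 3.82 CPM with UMBO, a log2 fold change of 1.33 (standard error 0.503) that was 0.75 without UMBO replicate 2 and 1.82 without vehicle replicate 2. Slc16a3, the lactate exporter MCT4, was at 3.33, 6.78 and 3.25 CPM with vehicle and at 5.41 and 23.0 CPM with UMBO. UMBO replicate 1 lay inside the vehicle range for Slc16a3, whose log2 fold change of 1.67 (standard error 0.648) was 0.28 without UMBO replicate 2 and 2.34 (edgeR adjusted p 0.039) without UMBO replicate 1. The last of the 4, Angptl4, a secreted inhibitor of lipoprotein lipase named here after its values were seen, was at 1.77, 2.40 and 2.46 CPM with vehicle and at 2.81 and 6.64 CPM with UMBO.

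Vegfa and Slc2a1, widely used HIF targets named here after their values were seen, lay on opposite sides. Vegfa, the growth factor for vessels, was at 70.9, 66.7 and 83.5 CPM with vehicle and at 63.3 and 57.1 CPM with UMBO, a log2 fold change of -0.29 (standard error 0.179; edgeR adjusted p 0.497). Slc2a1, the glucose transporter of the blood-brain barrier, was at 62.8, 80.0 and 80.8 CPM with vehicle and at 94.9 and 104 CPM with UMBO, a log2 fold change of 0.42 (standard error 0.188; edgeR adjusted p 0.497). For both genes the UMBO libraries lay outside the vehicle range. Of the 24 other hypoxia-inducible genes, 7 were above every vehicle library in both UMBO libraries and 2 were below. The shares over all genes tested were 11.5% above and 11.4% below.

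Of 17 other genes of glycolysis and its transport steps, 10 lay above and 7 below the vehicle level, and in edgeR 0 passed at an adjusted and 1 at an unadjusted p under 0.05, near the 7.37% of all genes that did. The median log2 fold change was 0.003. That 1 gene was Slc16a1, the lactate and ketone transporter MCT1, at 38.4, 47.3 and 44.5 CPM with vehicle and at 73.0 and 60.9 CPM with UMBO. Like Pdk1 and unlike the other members, Slc16a1 was highest in UMBO replicate 1, and its log2 fold change of 0.62 (standard error 0.178; edgeR adjusted p 0.497) was 0.75 without UMBO replicate 2 and 0.46 without UMBO replicate 1. Hk3, the hexokinase of myeloid cells, was at 2.88, 9.98 and 4.32 CPM with vehicle and at 6.17 and 28.4 CPM with UMBO, a log2 fold change of 1.59 (standard error 0.755) that was 0.11 without UMBO replicate 2, 2.28 (edgeR adjusted p 0.0414) without UMBO replicate 1 and 2.30 without vehicle replicate 2. Hk3 shares 34 exonic bases on the opposite strand with the neuronal gene Unc5a, which had 2353 to 7209 counts. For Pfkp, the platelet-type phosphofructokinase, the log2 fold change was -0.54 (standard error 0.32), -0.20 without UMBO replicate 2 and -1.02 without UMBO replicate 1. Gapdh, often used as a control gene, was at 1027 to 1315 CPM with vehicle and at 1188 and 1157 CPM with UMBO, and its log2 fold change was 0.0048 (standard error 0.257), with either sign under other scalings.

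Of 8 genes of pyruvate dehydrogenase and the kinases and phosphatase that set its activity, 2 lay above and 6 below the vehicle level, the median log2 fold change was -0.17, and edgeR gave 0 of them an adjusted or unadjusted p under 0.05. Pdp1, the phosphatase that switches the enzyme on, was at 183, 133 and 126 CPM with vehicle and at 117 and 73.7 CPM with UMBO, a log2 fold change of -0.63 (standard error 0.292; edgeR adjusted p 0.497) that was -0.33 without UMBO replicate 2 and -1.03 without UMBO replicate 1. For Pdk2 the log2 fold change was -0.24 (standard error 0.228), and for the subunit gene Dlat it was -0.21 (standard error 0.219). Without UMBO replicate 2 each was 0.02.

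**Figure D4:**
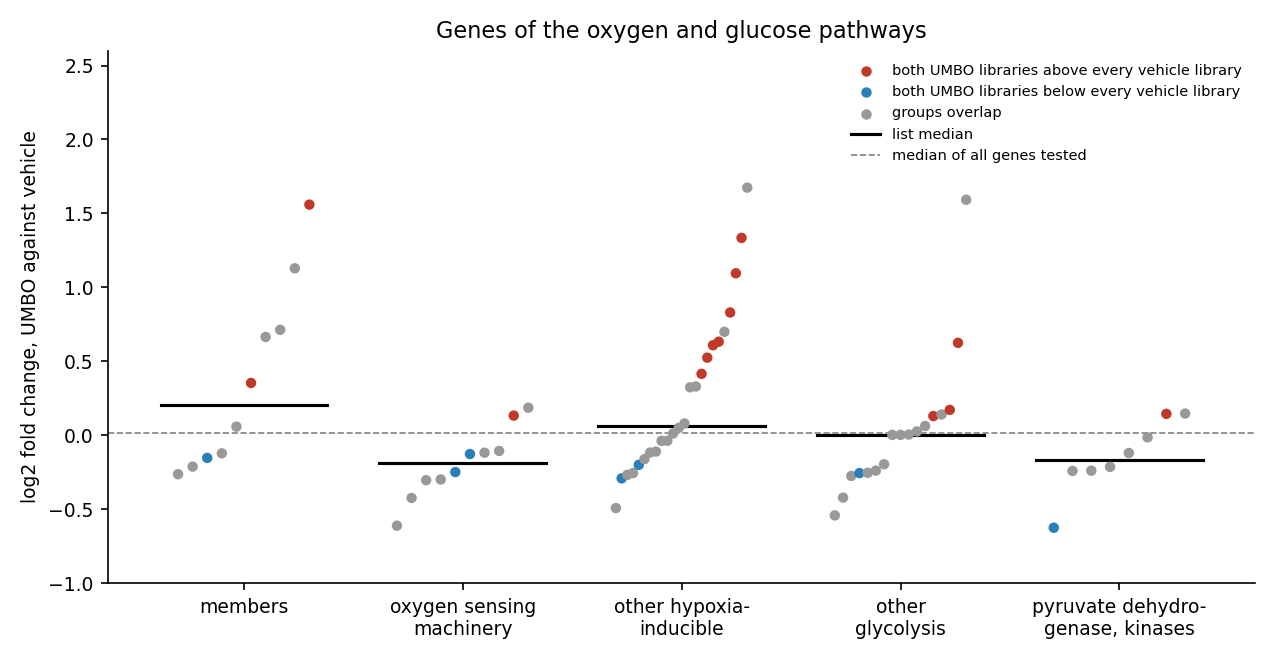
Log2 fold change (UMBO against vehicle) of each gene in the 10 members and the 4 surrounding lists, with black lines at list medians and a dashed line at the median of all genes tested, 0.01. Red and blue points are genes whose groups did not overlap, with UMBO higher or lower, and the list medians lie between -0.19 and 0.21.

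Marker genes of cell types also differed between the libraries. All 10 proliferation genes lay above the vehicle level, at a median log2 fold change of 2.13, and relative to the vehicle mean their median log2 value was 2.90 in UMBO replicate 2, 1.06 in UMBO replicate 1 and 0.92 in vehicle replicate 2. All 10 genes of microglia and macrophages did so too, at a median log2 fold change of 1.56. Their summed level was 425 to 1235 CPM with vehicle and 1166 and 2678 CPM with UMBO. UMBO replicate 2 was the highest library for both lists and for Hk2, Adm, Ldha and Pgk1. For these, UMBO replicate 1 and vehicle replicate 2 came next, in either order, and vehicle replicates 1 and 3 were the lowest. Car9 was also highest in UMBO replicate 2, but vehicle replicates 2 and 3 came next. Bnip3, Ndrg1 and Pdk1 were lowest in UMBO replicate 2, and Egln3 and Ankrd37 were highest in vehicle replicate 2. All 10 neuronal genes lay below the vehicle level, at a median log2 fold change of -0.41, and none was at 0. Myelin and oligodendrocyte genes, the cells that also express Ndrg1, had a summed level of 6004 to 6147 CPM with vehicle and 6406 and 5536 CPM with UMBO, with 2 genes higher and 6 lower. Endothelial genes summed to 186 to 259 CPM with vehicle and 315 and 327 CPM with UMBO, with 6 genes higher and 2 lower. Within that list Ly6c1 was at 12.8 to 32.6 CPM with vehicle and at 28.4 and 83.5 CPM with UMBO. Cldn5 was at 15.8 to 29.4 CPM with vehicle and at 38.9 and 57.1 CPM with UMBO. Cldn5, Pecam1 and Cdh5 were above every vehicle library in both UMBO libraries, as were 11.5% of all genes tested. These 3 genes and Ly6c1 were highest in UMBO replicate 2. Slco1a4, Abcb1a and Tek were highest in UMBO replicate 1 and lowest in UMBO replicate 2. Flt1 lay inside the vehicle range in both UMBO libraries. The endothelial genes were named after their values were seen. Red blood cell genes summed to 71.8 to 165 CPM with vehicle and to 181 and 217 CPM with UMBO. Of 6 neutrophil genes 3 had enough counts to be tested, and they summed to at most 4.87 CPM, in UMBO replicate 2. Choroid plexus genes summed to 808 to 837 CPM with vehicle and to 856 and 498 CPM with UMBO, with 1 gene higher and 6 lower. Most of that sum was Ttr, at 712 to 746 CPM with vehicle and at 766 and 456 CPM with UMBO. Astrocyte genes summed to 3455 to 4848 CPM with vehicle and 5365 and 3190 CPM with UMBO, with 4 genes above and 4 below the vehicle level. Within that list Gfap, a filament protein of reactive astrocytes named here after its values were seen, was at 214, 515 and 388 CPM with vehicle and at 1396 and 1636 CPM with UMBO (log2 fold change 2.03, standard error 0.401; edgeR adjusted p 0.497, DESeq2 adjusted p 0.0031). The part of these cell types in the values of the 10 genes was not tested, and no gene that marks GL261 cells alone was used.

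**Figure D5:**
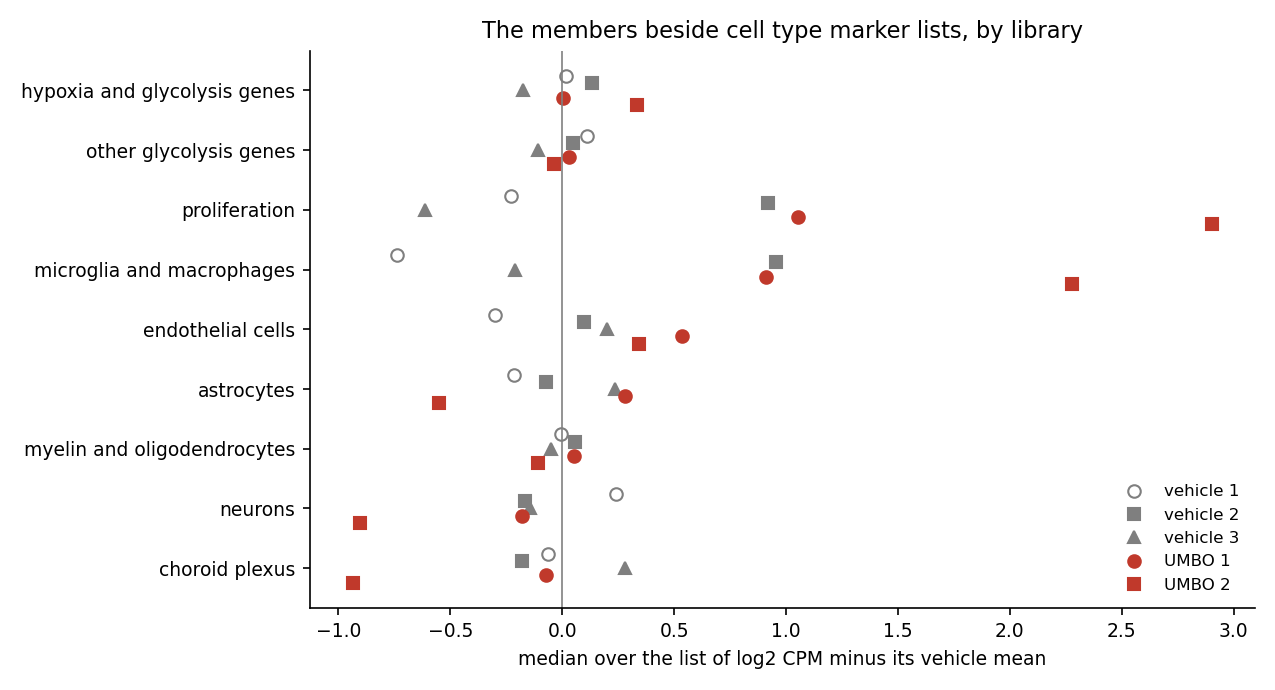
For each list, the median over its genes of log2 CPM minus the vehicle mean, by library (grey symbols vehicle, red symbols UMBO). UMBO replicate 2 lies at 2.90 for proliferation and at 0.33 for the hypoxia and glycolysis genes, where UMBO replicate 1 lies at 0.00.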

How the data were processed

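Bulk RNA sequencing covered the tumor-bearing right hemisphere of 5 mice, 3 vehicle and 2 UMBO, grouped by their labels. The paper gives n = 3 for its comparison of these groups, and only 2 UMBO libraries were available here. Any further mouse of the experiment was not analysed. Reads were mapped to GRCm38 by the authors with STAR 2.7.2a, and the deposited tables, 1 per library, hold raw counts per Ensembl gene. The annotation release and the strand setting are not given in the sources used here. Symbols, positions and merged exon lengths came from GENCODE M21 (GRCm38), and promoter windows from RefSeq (GRCm38.p6). Total counts lay between 59736771 and 86164159. Each library is 1 mouse, and p-values measure the spread between these mice.

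Counts were normalized by TMM, filtered with filterByExpr and tested in edgeR 4.0.16 (R 4.3.3) by quasi-likelihood over 23592 genes; p-values were adjusted by Benjamini-Hochberg and called under 0.05. The standard error is the log2 fold change divided by the square root of its F statistic. Ratios of gene pairs were compared with a 2-sided exact permutation test. The scripts were tested on simulated data. The genes named by rule are the 10 members, 3 genes per surrounding list, those of lowest unadjusted p, and the partners in the pairs. Angptl4, Vegfa, Slc2a1, Gfap, Ttr and the endothelial genes were chosen for naming after their values were seen. The members and lists were chosen with earlier results of these data known, so no test of a list is given. Alternatives covered scaling, filters, DESeq2 1.42.0, the replicate number as a block and each library left out.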

Additional observations from a re-analysis of the deposited data

How the results depend on the processing

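The number of members with an adjusted p under 0.05 was 0 under every scaling and filter run and in DESeq2, and between 0 and 3 when each library was left out in turn, with 3 without UMBO replicate 1. With the replicate block it was 1 (Hk2, log2 fold change 1.36, edgeR adjusted p 0.00103), in a fit that called 2337 of 23592 genes, among them Ddit4, Loxl2, Slc16a3, Hk3 and Pdp1 (edgeR adjusted p 0.00366 to 0.0403). The same replicate numbers correlated at 0.453 and 0.76 in their deviations, but only 2 numbers are shared and nothing in the labels ties them to a litter or day, so they do not establish pairs. The number of members with both UMBO libraries above every vehicle library was 2 (11.5% of all genes), and 1 with library size only (13.8%). Without vehicle replicate 1 or 3 it was 2 (13.2% and 14.8% of all genes). It ranged from 2 to 5 with each library left out, with 4 without vehicle replicate 2 (30.1% of all genes) and 5 without UMBO replicate 1 (42.2%).

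Scaling by library size alone shifted the median over all genes from 0.01 to 0.13 on the log2 scale, and with it the medians of the members from 0.21 to 0.32, of pyruvate dehydrogenase and its kinases from -0.17 to -0.056, of other hypoxia-inducible genes to 0.19, of the oxygen sensing machinery to -0.076 and of other glycolysis genes to 0.12. The last of these was -0.0027 with DESeq2 size factors and with DESeq2, -0.020 with no filter and -0.066 with the replicate block. With each library left out, the medians ranged from -0.0018 to 0.30 for the members, from -0.072 to 0.047 for other glycolysis genes, from -0.40 to -0.060 for the oxygen sensing machinery and from -0.49 to 0.032 for pyruvate dehydrogenase and its kinases.

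With each library left out the log2 fold change of Ankrd37 ranged from -0.40 to 0.086 (0.0041 with library size only), that of Car9 from -0.25 to 1.26, that of Pdk1 from -0.42 to 0.40, that of Pdk2 from -0.59 to 0.022 and that of Dlat from -0.52 to 0.024. The range was from -0.28 to 0.34 for the log2 ratio of Egln3 to Egln1. For Gapdh it ranged from -0.081 to 0.098, and was -0.0020 with DESeq2 size factors and with DESeq2, -0.020 with no filter and -0.077 with the replicate block. The cause was not tested for any of these. The rarest member, Car9, had 67 reads in its lowest library.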
